A study of Mus musculus with 6 samples.

Results

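Adipokines and related secreted factors of fat cells were followed in 3T3-L1, a preadipocyte line of mouse origin that hormones drive to become fat cells. The set was given as 8 gene symbols and was read from the platform annotation with 1 probe set per symbol. Of the 8 symbols, 7 had a probe set among the 19938 genes with a single symbol, and each of the 7 had exactly 1. These were Adipoq, Retn, Lep, Rbp4, Nampt, Angptl4 and Apln. Cfd, which encodes complement factor D (adipsin), had no entry in the annotation used and was not analysed here. Total RNA of 6 cultures was hybridised to Affymetrix whole-transcript arrays, with 1 array for each of 6 conditions. All cultures were of the same line, and nothing in the labels names separate cultures or batches within a condition. The 3 fibroblast groups were undifferentiated cells in calf serum, either untreated or exposed for 3 days to adenine or to AICAR, each at 0.5 mM. The 3 adipocyte groups were grown to confluence and induced for 3 days in fetal bovine serum with IBMX, insulin and dexamethasone, and were then kept for 3 days in serum with insulin. One of these received no compound, and the others had adenine or AICAR (0.5 mM) in the induction medium, and the compound was absent from the last 3 days. Adenine is a purine base, and AICAR is a ribonucleoside whose phosphorylated form mimics AMP and activates the AMP-activated protein kinase. According to its title, the series asks about purinergic signalling by adenine in both cell states.

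Adipose tissue acts as an endocrine organ through proteins that its cells release. Adiponectin raises insulin sensitivity, leptin reports fat stores to the brain, and resistin was described as an adipocyte product that opposes insulin in mice. Other secreted factors act on blood lipids, vessels, retinol transport or NAD metabolism, and many of their genes are switched on during adipogenesis under the transcription factors PPARγ and C/EBPα.

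Promoter sequences were available in the RefSeq table (build GRCm38.p6, the assembly also called mm10) for 6 of the 7 measured genes, and Angptl4 had no entry. Those of Adipoq and Retn are shown because these genes had the widest difference between the cell states, and that of Lep because it is a fat cell hormone gene that stayed near the lower end of the scale. Each is the 250 bases before the annotated start, 5′ to 3′ on the gene's strand, which is the plus strand for all of them. Capitals mark matches on either strand to CCAAT, TTGCNNAA (a C/EBP-type core), AGGTCA (a nuclear receptor half-site), TATAAA or CACGTG.
Adipoq, chr16:23146286-23146535: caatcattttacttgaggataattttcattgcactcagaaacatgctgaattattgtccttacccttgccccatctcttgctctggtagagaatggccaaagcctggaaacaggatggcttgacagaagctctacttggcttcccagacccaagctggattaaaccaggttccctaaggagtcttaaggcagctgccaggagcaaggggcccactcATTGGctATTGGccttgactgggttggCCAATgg
Retn, chr8:3655520-3655769: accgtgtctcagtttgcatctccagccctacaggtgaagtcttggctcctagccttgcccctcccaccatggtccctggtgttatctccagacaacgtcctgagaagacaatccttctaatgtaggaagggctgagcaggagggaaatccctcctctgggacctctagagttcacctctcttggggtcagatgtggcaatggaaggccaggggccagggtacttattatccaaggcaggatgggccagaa
Lep, chr6:29059971-29060220: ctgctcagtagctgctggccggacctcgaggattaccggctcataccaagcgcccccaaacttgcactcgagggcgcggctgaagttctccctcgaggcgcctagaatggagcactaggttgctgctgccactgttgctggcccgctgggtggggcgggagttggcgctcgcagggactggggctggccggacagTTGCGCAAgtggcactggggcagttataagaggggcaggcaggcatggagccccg
The Adipoq window held 3 CCAAT matches, of which the last ended at position -3 from the start. Of all 32851 promoter windows of the same length in the table, 33.8% had at least 1 such match. The Lep window held 1 match to TTGCNNAA, a motif present in 9.56% of windows, at positions -55 to -48 from the start. The Retn window held none of the motifs searched. AGGTCA was found in 14.0% of all windows, TATAAA in 12.4% and CACGTG in 6.02%. Among the other members, Nampt had 1 AGGTCA match and Apln had no match. Rbp4 had windows for 2 annotated starts, one with a TTGCNNAA match at positions -128 to -121 from the start and a TATAAA match at -28 to -23, and the other with 1 CCAAT match. A match is a description of letters and was not tested for binding.

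Expression was given as log2 signal, and array medians over all probe sets lay between 5.41 and 5.49. Genes with a mean over the 6 arrays at or above 5.87, the median of all genes, were tested, which left 9969. With 1 array per condition a difference between 2 arrays has no replicate check, so precision is limited by how few arrays there are. Of the 7 members, 5 passed this filter. Lep and Rbp4 did not, and they are described by their levels. Adipoq and Retn passed only through the adipocyte arrays, since all their fibroblast values lay under the filter, so a difference between states was built into their passing.

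The labels were first set against marker genes. Of 8 adipocyte markers, 7 passed the filter, and the list's median level was 5.88 to 6.02 on fibroblast arrays and 10.29 to 11.18 on adipocyte arrays. Fibroblast markers had a median level of 10.82 to 11.44 in fibroblasts, and they were still at 9.32 to 10.86 in adipocytes. Their median difference, adipocytes minus fibroblasts, was -0.74 in control medium and -2.38 with adenine. With AICAR it was 0.02, with 4 of 8 higher in adipocytes, so they did not separate the states there. Ptprc, the pan-leukocyte antigen, lay between 3.86 and 4.32 on all 6 arrays, and 2 of 8 macrophage or leukocyte markers (Cd68 and Cd14) passed the filter. Their list had a median of 4.49 to 4.94 in fibroblasts and 4.66 to 4.82 in adipocytes. No endothelial, bone and cartilage or brown fat marker passed, and of the muscle markers 1 of 4 did (Des). In RNA from whole cultures, fewer cells of a type and less RNA per cell cannot be told apart.

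**Figure D1:**
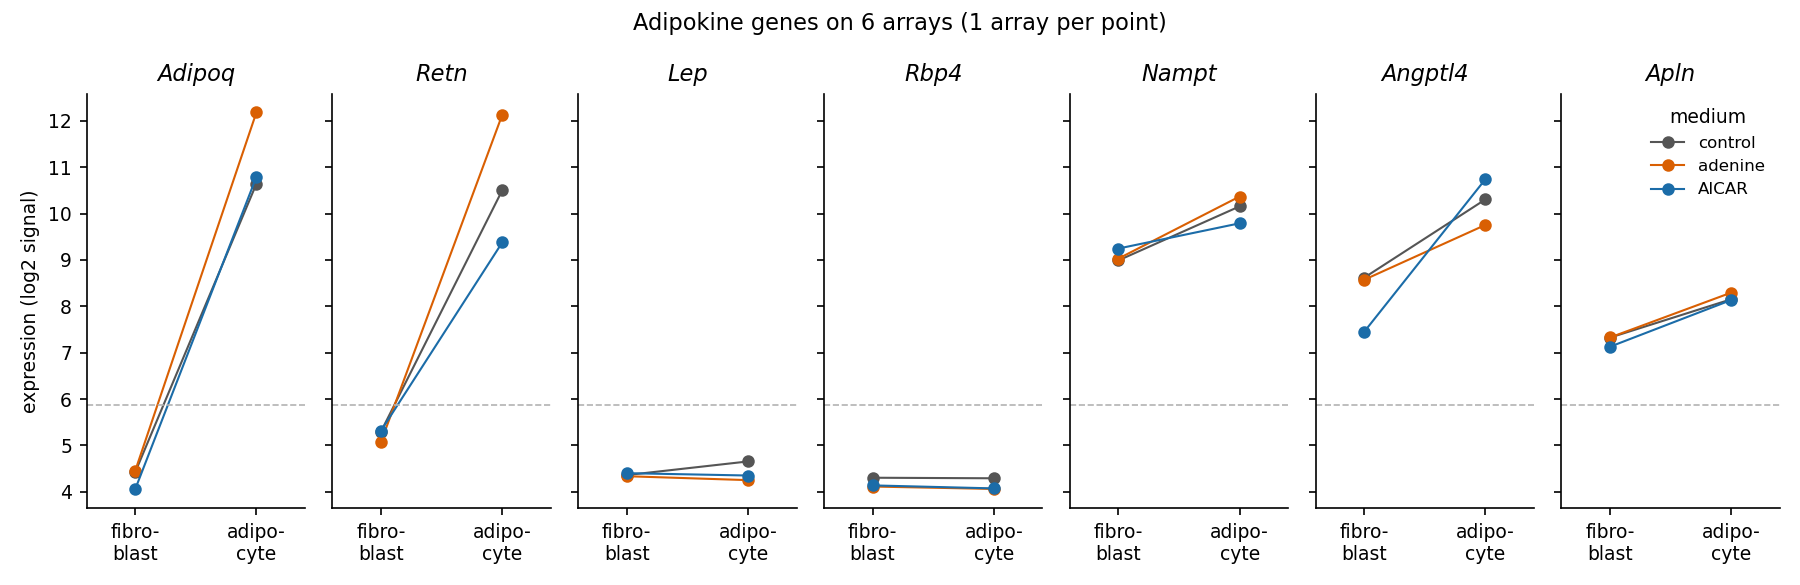
Levels of the 7 genes on the 6 arrays, as log2 signal on the y axis, with fibroblasts on the left and adipocytes on the right of each panel. Points are single arrays, lines join cultures in the same medium, and the dashed line is the filter at 5.87. Adipoq and Retn climb from below the line to between 9.38 and 12.18, and Lep and Rbp4 stay under it on all arrays.

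The first comparison asked how the adipokine genes differed between adipocytes and fibroblasts. Adipoq and Retn were far higher in adipocytes in every medium, Angptl4, Nampt and Apln were higher by smaller amounts, and Lep and Rbp4 lay under the filter on all arrays, with overlapping values in the 2 states. All 5 tested genes had every adipocyte array above every fibroblast array, as did 22.1% of all tested genes. In untreated cells 4 of the 5 were at least 2-fold higher in adipocytes (2.88% of all tested genes). The counts were 4 of 5 with adenine (6.75% of genes) and 4 of 5 with AICAR (5.93% of genes). Nampt was the exception with AICAR, and Apln in the other media. Since Adipoq and Retn owe their place among the tested genes to their adipocyte levels, the counts are a description.

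Adipoq encodes adiponectin, an abundant hormone of fat cells, and lies at chr16:23146536-23157968. Its level in fibroblasts was 4.42 in control medium, 4.45 with adenine and 4.05 with AICAR. In adipocytes it was 10.64 in the control, 12.18 with adenine and 10.79 with AICAR. The states were thus separated by a gap of 6.19, and the adenine adipocytes stood above the other adipocytes, whose values were close together. Adipocytes exceeded fibroblasts by 6.22 in control medium (74.7-fold), by 7.73 with adenine and by 6.74 with AICAR. Among 9969 genes this was the second largest difference in control medium, rank 2 from the top, and rank 1 in the other media. The fold rests on fibroblast levels near the lower end of the scale where the background handling sets its size, and that step is not given in the sources used here.

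Retn, which encodes resistin, lies at chr8:3655770-3659818. It was at 5.30, 5.08 and 5.31 in control, adenine and AICAR fibroblasts. The adipocyte values were 10.50 in the control, 12.13 with adenine and 9.38 with AICAR. Among the adipocytes Retn was thus highest with adenine and lowest with AICAR, on 1 array each, while the fibroblast levels lay within 0.24 of each other. Its adipocyte range of 2.75 was the widest of the 7 genes, and the median range of all tested genes across the adipocyte arrays was 0.29 (95th percentile 1.03). The difference between states was 5.21 in control medium (36.9-fold, rank 6 of 9969), 7.05 with adenine (rank 3) and 4.06 with AICAR (rank 12). As for Adipoq, these folds and ranks rest on dim fibroblast values, which lay below every array's median, and the background handling sets their size.

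Angptl4 encodes an inhibitor of lipoprotein lipase, the enzyme that frees fatty acids from circulating triglycerides, and lies at chr17:33774900-33781575. Fibroblast levels were 8.62 in the control, 8.57 with adenine and 7.45 with AICAR. Adipocyte levels were 10.31 in the control, 9.76 with adenine and 10.74 with AICAR. AICAR thus had the lowest value among fibroblasts and the highest among adipocytes. As a result the difference between states was 1.69 in control medium (3.23-fold), 1.18 with adenine and 3.29 with AICAR (9.80-fold, rank 29 of 9969).

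Nampt encodes nicotinamide phosphoribosyltransferase, the salvage enzyme of NAD synthesis, which is also released from cells and was named visfatin. It lies at chr12:32820335-32853369. In fibroblasts it was at 8.99 in the control, 9.03 with adenine and 9.25 with AICAR. In adipocytes the values were 10.16, 10.37 and 9.79 in the same order. AICAR was the highest of the fibroblast arrays and the lowest of the adipocyte arrays, the reverse of its order for Angptl4. Adipocytes were higher by 1.17 in control medium (2.24-fold), by 1.34 with adenine and by 0.54 with AICAR.

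Apln encodes the precursor of apelin, a peptide ligand of the receptor Aplnr that acts on vessels and heart, and lies at chrX:48025146-48034853. It stood at 7.32, 7.33 and 7.13 in control, adenine and AICAR fibroblasts. The adipocyte values were 8.15 in the control, 8.30 with adenine and 8.14 with AICAR. Levels within a state lay within 0.20 of each other in fibroblasts and within 0.16 in adipocytes, so that Apln varied least with medium among the 5 tested genes. The difference between states was 0.83 in control medium (1.77-fold), 0.97 with adenine and 1.01 with AICAR.

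Lep encodes leptin and lies at chr6:29060221-29073876. Its fibroblast levels were 4.36 in the control, 4.34 with adenine and 4.40 with AICAR. Its adipocyte levels were 4.65 in the control, 4.25 with adenine and 4.35 with AICAR. The states overlapped, and the whole range over 6 arrays was 0.40. Rbp4, which encodes the plasma carrier of retinol, lies at chr19:38116620-38125321 and ranged over 0.24. It was at 4.30, 4.11 and 4.14 in control, adenine and AICAR fibroblasts and at 4.29, 4.06 and 4.07 in the corresponding adipocytes. In both states the untreated array had the highest Rbp4 value, and these states also overlapped. Differences in either transcript may not be detectable at such levels, so neither is described as unchanged.

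An additive limma model of cell state and medium, fitted to all 6 arrays, tested the difference between states. All 5 tested members rose in adipocytes, as did 5.22% of the 9969 genes, while 5.37% fell. For Adipoq and Retn a difference between states was built in by the filter, so their part of this count and their p-values are a description. Adipoq rose by 6.90 (SE 0.296, limma adjusted p = 0.0018) and Retn by 5.44 (SE 0.536, limma adjusted p = 0.00905). Angptl4 rose by 2.06 (SE 0.402, limma adjusted p = 0.0348), Nampt by 1.02 (SE 0.197, limma adjusted p = 0.0341) and Apln by 0.93 (SE 0.139, limma adjusted p = 0.0193). The error here is the departure from additivity between state and medium, so it does not measure the spread between cultures. The 2 states also differed in serum and in exposure to IBMX, insulin and dexamethasone, and these cannot be told apart from state. Without the control arrays 0 of 9969 genes passed in limma, and the adjusted p of the members was 0.0588 to 0.182. All 5 members then had an unadjusted limma p under 0.05, as did 2095 of the 9969 genes. Without the adenine arrays 3 of 5 passed, and Nampt (limma adjusted p = 0.107) and Apln (limma adjusted p = 0.0625) did not.

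**Figure D2:**
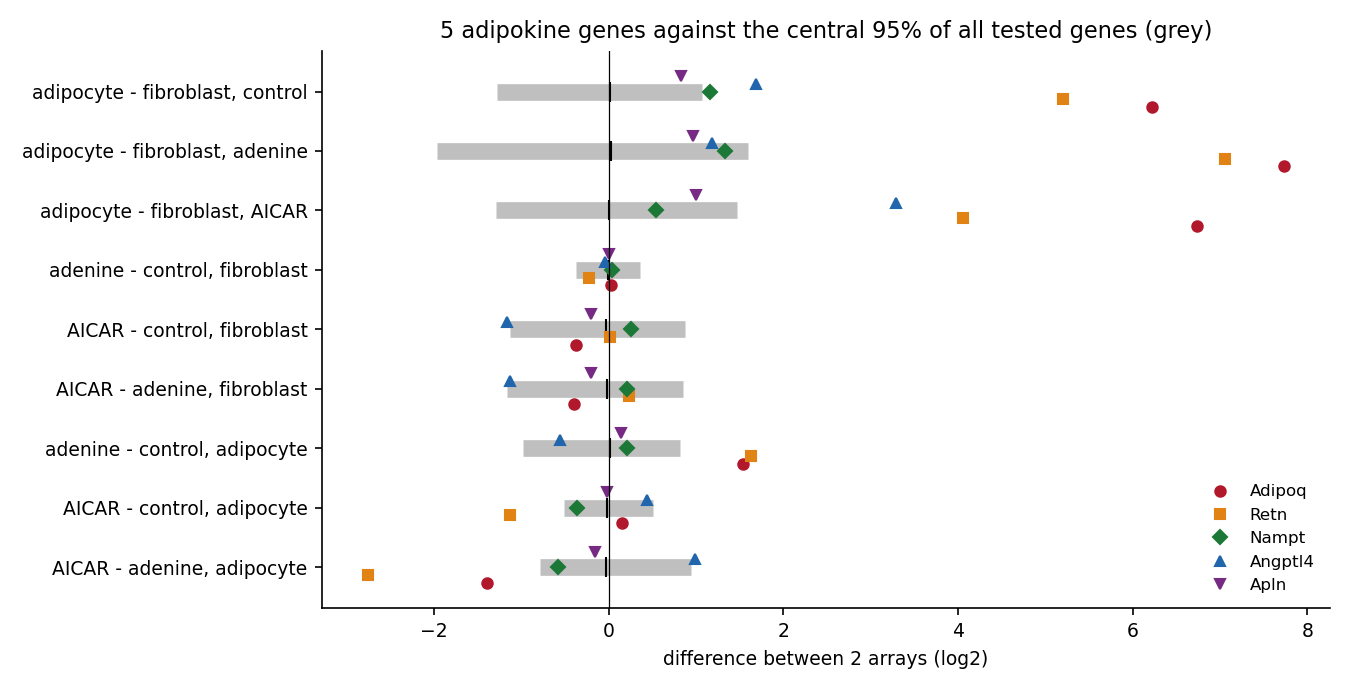
Log2 differences between 2 arrays on the x axis for the 5 tested genes in 9 comparisons, 1 per row. Grey bars span the central 95% of the 9969 tested genes and black ticks their median. Adipoq and Retn lie far outside the grey bars between states, and Retn lies outside them in all comparisons within adipocytes.

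The next comparisons asked what each compound did in fibroblasts. With adenine none of the 7 genes differed from the control by 2-fold, as was the case for nearly all tested genes, of which 0.0802% were higher by 2-fold or more and 0.0502% lower by as much. The differences of the tested members ran from -0.22 for Retn to 0.04 for Nampt. With AICAR, 1 of the 5 tested genes was at least 2-fold lower (3.69% of tested genes), and this was Angptl4. Its difference was -1.17 (2.25-fold lower), the 231st lowest of 9969 genes, and against adenine fibroblasts it was -1.12. Again it was the only one of the 5 at least 2-fold lower than with adenine (3.89% of tested genes). Adipoq differed from the control by -0.37 and Apln by -0.20 with AICAR, Nampt by 0.26 and Retn by 0.02. The Retn value changes sign to -0.02 under quantile normalization or median centring. Adipoq and Retn were under the filter in all fibroblasts, so their differences there carry little information. Beside the AICAR values, the fibroblast markers had a median difference of -0.95, with 4 of 8 at least 2-fold lower. Cd68, a lysosomal protein of macrophages, was higher by 1.49, while the median over all 8 macrophage or leukocyte markers was 0.26. Their part in the Angptl4 result was not tested.

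**Figure D3:**
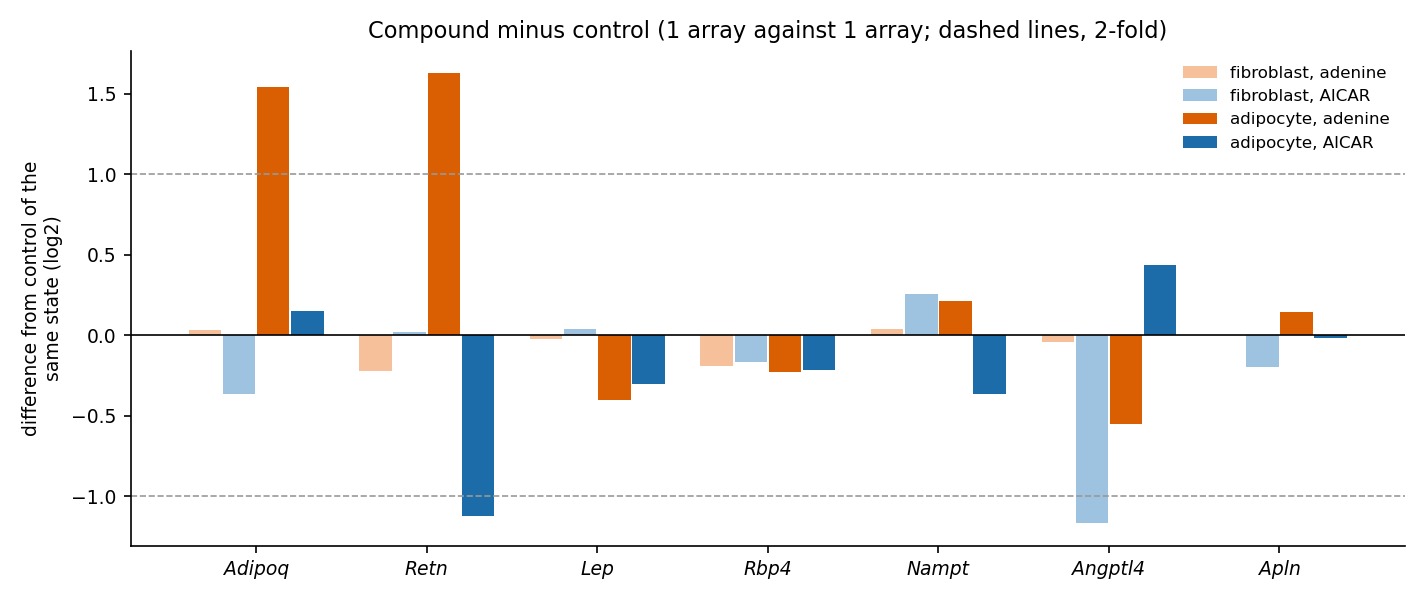
Log2 difference from the untreated array of the same state on the y axis, for each of the 7 genes, with 1 bar per compound and state. Dashed lines mark 2-fold. The adenine adipocyte bars of Adipoq (1.54) and Retn (1.63) and the AICAR bars of Retn in adipocytes (-1.13) and Angptl4 in fibroblasts (-1.17) pass them.

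The culture induced in the presence of adenine was set against untreated adipocytes. Adipoq and Retn were both higher, and they were the 2 of 5 tested members at least 2-fold higher, where 1.24% of tested genes were. Adipoq differed by 1.54 (2.91-fold, rank 17 of 9969) and Retn by 1.63 (3.09-fold, rank 11). Nampt differed by 0.21, Apln by 0.14 and Angptl4 by -0.55. Below the filter, Lep was at a difference of -0.40 and Rbp4 of -0.23. On the same arrays 7 of 7 tested adipocyte markers were higher (median 0.99, 3 of them at least 2-fold). All 8 fibroblast markers were at least 2-fold lower (median -1.58), where 2.4% of tested genes were. The median of all tested genes was 0.02. Whether the Adipoq and Retn values go with the makeup of the culture was not tested.

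AICAR during induction gave another pattern. Retn was the only one of the 5 tested members at least 2-fold lower than in untreated adipocytes, where 0.381% of tested genes were. Its difference was -1.13 (2.18-fold lower, the 21st lowest of 9969 genes). Adipoq differed by 0.15 in the same pair of arrays, Angptl4 by 0.44, Nampt by -0.37 and Apln by -0.02. The Apln value turns to 0.05 with median centring. Here the adipocyte markers had a median difference of 0.06, with 0 of 7 at 2-fold in either direction, and the fibroblast markers one of -0.22. Of the 8 fibroblast markers 7 were lower than in the control, and both tested macrophage markers (Cd68 and Cd14) were higher, with a median of 0.47. Over all 8 macrophage or leukocyte markers, most of them under the filter, the median was 0.06. Their part in the Retn result was not tested.

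Set directly against each other at the same dose and time, AICAR adipocytes had lower Retn and Adipoq than adenine adipocytes. The Retn difference of -2.75 (6.74-fold lower) was the 3rd lowest of 9969 genes, and that of Adipoq was -1.39 (2.62-fold lower). These were the 2 of 5 members at least 2-fold lower, where 1.21% of tested genes were. Nampt was at -0.58, Apln at -0.16 and Angptl4 at 0.99, the last just under 2-fold. Comparisons with adenine and with AICAR share the untreated array, and the direct comparison uses both treated arrays, so the sets of values are not independent. Averaged over both states in the limma model, 0 of 9969 genes passed for adenine (0.0% of genes) and 0 for AICAR (0.0% of genes), and 62 and 226 genes had an unadjusted p under 0.05. None of the 5 members was among them, and the coefficients of Adipoq and Retn for adenine were 0.79 (SE 0.363) and 0.70 (SE 0.657). The model assumes one response in both states. A response that differs between states enters its error.

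**Figure D4:**
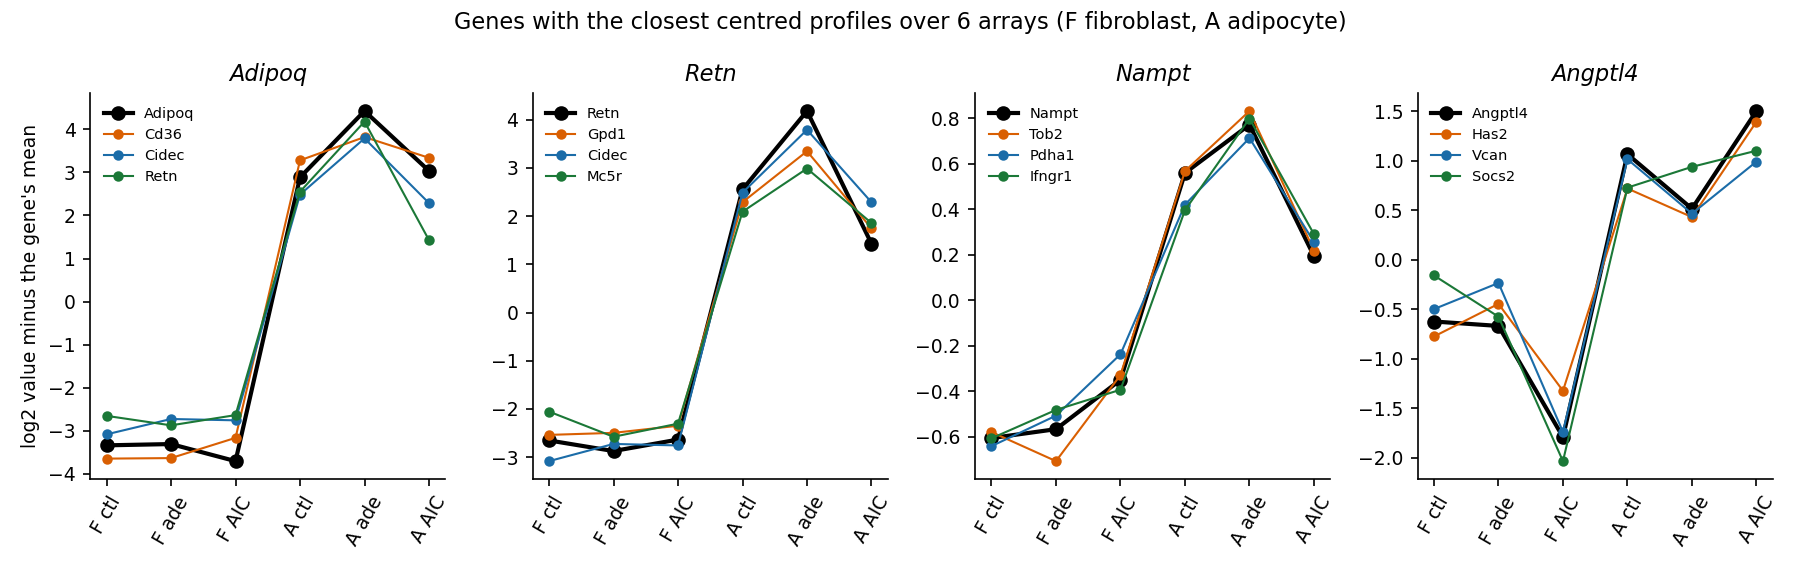
Centred log2 values (each gene minus its own mean) on the y axis over the 6 arrays on the x axis, F for fibroblast and A for adipocyte, for Adipoq, Retn, Nampt and Angptl4 in black and their 3 closest genes in colour. For Adipoq, Retn and Nampt the peak is at the adenine adipocytes, and for Angptl4 the lowest point is at the AICAR fibroblasts.

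Among the 9969 genes, those closest to each member were found by the root mean square distance between centred log2 values over the 6 arrays, which is a description with 1 array per condition. Closest to Adipoq were the fatty acid transporter Cd36 (distance 0.43), the lipid droplet gene Cidec (0.64) and Retn itself (0.87). Retn was closest to the glycerol phosphate dehydrogenase Gpd1 (0.43), to Cidec (0.43) and to the melanocortin receptor Mc5r (0.63). Gpd1 and Mc5r had, like Retn, their highest value with adenine and their lowest adipocyte value with AICAR. Angptl4 was closest to the hyaluronan synthase Has2 (0.27), the matrix proteoglycan Vcan (0.28) and the cytokine signalling suppressor Socs2 (0.35), all of which had their lowest value in AICAR fibroblasts. For Nampt these were Tob2 (0.065), the pyruvate dehydrogenase subunit Pdha1 (0.086) and the interferon gamma receptor Ifngr1 (0.087), and for Apln they were Asap2, Vgll4 and Mcat (0.044 to 0.062). Lep and Rbp4 vary so little that their closest genes, Arnt (0.031), Rbfox2 and Fignl2 for Lep and Atoh7 (0.046), Fbxo46 and Gba2 for Rbp4, are themselves nearly flat.

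Between the members, Nampt and Apln had the closest profiles among the tested genes (distance 0.20), Adipoq and Retn were 0.87 apart, and Angptl4 was at least 0.72 from each of the other 4. The last value was its distance from Apln.

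Receptors and binding partners of these hormones were taken as a list. Of 16 such genes measured, 8 were bright enough to be tested, and 1 rose and 2 fell between states in limma (5.22% and 5.37% of all tested genes), with a median state coefficient of -0.21. Adipor2, one of the adiponectin receptors, rose by 1.62 (SE 0.220, limma adjusted p = 0.0161), while its relative Adipor1 had a coefficient of -0.13. Tlr4 fell by 0.87 and Cap1 fell by 0.80, and both are reported to bind resistin. Cdh13 encodes T-cadherin, which holds adiponectin at the cell surface. It was at 7.38, 7.87 and 7.28 in control, adenine and AICAR fibroblasts and at 8.64, 7.19 and 7.41 in adipocytes. Untreated adipocytes thus had the highest Cdh13 level, and treated adipocytes were at fibroblast levels, with differences from the control of -1.45 for adenine and -1.23 for AICAR. The leptin receptor Lepr and the apelin receptor Aplnr lay under the filter.

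The transcriptional regulators of adipokine genes are a wider list, of which 31 of 35 measured were tested, 7 rose and 0 fell between states, where 5.22% and 5.37% of all tested genes did. Cebpa had the largest coefficient (2.38) and Srebf1 the next (1.77), and Atf3 (-0.78) and Klf3 (-0.50) the lowest, the last pair without passing. Cebpa was higher by 1.25 with adenine in adipocytes, and its difference with AICAR was -0.14. Pparg differed by 0.99 and 0.14. The list as a whole did not share this: with adenine in adipocytes 13 of the 31 were higher, with a median of -0.07. Cebpa was the 1 at least 2-fold higher, where 1.24% of all tested genes were. In the AICAR model Id3 had the highest coefficient (1.29) and Ppargc1a the lowest (-0.91), and neither passed.

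Partners of single members were taken from further lists, to be read beside the 5.22% of all tested genes that rose and the 5.37% that fell. For Angptl4, the lipoprotein lipase system had 11 of 17 genes tested. Of these, Cd36 (6.96) and the hormone-sensitive lipase Lipe (3.67) rose and none fell. Both are also in the adipocyte marker list. Lpl, the lipase that Angptl4 inhibits, had a coefficient of 0.50 without passing. Cd36 lay at 3.98 to 4.47 in fibroblasts, under the filter, so a difference between states was built into its passing. This limit holds for a gene of any list that passed only through its adipocyte arrays. Lrp1 (-0.44) and the lipase maturation factor Lmf1 (-0.21) had the lowest coefficients. In NAD salvage and use, the list around Nampt, 1 of 15 tested genes rose (Parp1, 0.75) and 1 fell (the deacetylase Sirt2, by 0.79). Both counts are near the shares over all tested genes. Nmnat1, which takes the product of Nampt to NAD, had a coefficient of 0.67 without passing, and it was higher by 0.72 in adenine adipocytes. Of 11 genes for adiponectin folding and secretion none passed (median coefficient 0.11). Pdia4 was at 0.47 and the disulfide oxidoreductase Ero1a at 0.29, while Erp44 was at -0.24 and Gstk1 at -0.43. In control medium alone Ero1a differed by -0.50 between adipocytes and fibroblasts. An unadjusted limma p below 0.05 was reached by 1 of the 11, and by 2941 of all 9969 tested genes.

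For the lists that follow, the shares over all tested genes were again 5.22% rising and 5.37% falling. In the apelin list 1 of 6 tested genes rose (the arrestin Arrb1, 0.73). Retinol transport and metabolism, around Rbp4, had 14 tested genes, of which 3 rose and 0 fell, among them the aldehyde dehydrogenase Aldh1a7 (2.96) and the retinol saturase Retsat (1.67). The alternative complement pathway, around the unmeasured Cfd, had only 4 tested genes, and Masp1 fell by 1.06. The list headed other secreted adipocyte factors was split, and not every gene in it, Lgals12 for one, encodes a classically secreted protein. Of 29 tested genes 9 rose and 7 fell (5.22% and 5.37% of all tested genes), with a median coefficient of -0.26. Lgals12 (3.87) and the lipocalin Lcn2 (3.58) had the highest coefficients. Lgals12 lay under the filter in all fibroblasts (5.24 to 5.64), so a difference between states was built into its passing. The chemokine Ccl2 fell by 3.06 and adrenomedullin (Adm) fell by 2.66. The median state coefficient of all tested genes was 0.02.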

How the data were processed

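RNA of 6 3T3-L1 cultures (1 per condition) was measured on Affymetrix arrays. The values are normalized log2 signals as deposited by the authors. The submitters' processing notes name Transcriptome Analysis Console 1.0.0.234 and mm10, while how arrays were normalized or background-corrected is not stated there. No further scaling was applied. Of 35556 probe sets, 21789 had 1 gene symbol in the platform annotation, 1621 several and 12146 none. A symbol with several probe sets (999 of 19938) was represented by the one with the highest mean. Genes at or above the median of gene means (log2 5.87) were tested, which kept 9969. Differences between 2 arrays have no test, and 2-fold was used to describe them. limma 3.58.1 (R 4.3.3) was fitted over 6 arrays with state and medium as additive terms. Benjamini-Hochberg adjustment covered all 9969 genes, with a threshold of 0.05. The fit was also run on simulated data that held no medium effect and no departure from additivity. That run therefore does not gauge the error of the fit to these arrays. A compound effect that differs between states could not be tested with 1 array per condition. Most genes outside the set were named by fixed rules. These took the 3 closest profiles per member, the 2 highest and 2 lowest state coefficients and the extreme compound coefficients of each list. Any tested gene of the receptor, NAD and adiponectin folding lists could also be named. Slc2a4, Elovl3 and the compound differences of Pparg were chosen after their values were seen. Also outside these rules were the markers Ptprc, Cd68, Cd14, Des, Ucp1, Cidea and Prdm16, the state coefficient of Lpl, and the untested receptors Lepr and Aplnr. The members and lists were chosen with earlier results of these data known. Alternatives were quantile normalization, median centring, other filters, another probe set rule, another fold threshold, a trended variance prior and leaving out each medium.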

Additional observations from a re-analysis of the deposited data

Results flagged for a closer look

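In 8 of 15 pairs of a tested member and a compound comparison, the single fibroblast difference and the single adipocyte difference had opposite signs. Among all tested genes the share with opposite signs was 53.9% with adenine against control and 53.6% with AICAR against control. It was 50.3% with AICAR against adenine. The 8 of 15 among the members is close to these shares. None of these differences between states was tested. The adipocytes were kept for 3 days without compound after exposure, a step the fibroblasts did not have. This timing cannot be told apart from cell state here. The values below are the adipocyte difference minus the fibroblast difference, on the log2 scale. For Retn it was 1.85 with adenine (-0.22 in fibroblasts and 1.63 in adipocytes), -1.14 with AICAR (0.02 and -1.13) and -2.99 for AICAR against adenine (0.24 and -2.75). The sign of the Retn value with AICAR in fibroblasts turns with quantile normalization and with median centring. For Angptl4 it was 1.60 with AICAR (-1.17 in fibroblasts and 0.44 in adipocytes) and 2.11 for AICAR against adenine (-1.12 and 0.99). For Nampt it was -0.62 with AICAR (0.26 and -0.37) and -0.79 for AICAR against adenine (0.22 and -0.58). For Adipoq it was 0.52 with AICAR (-0.37 and 0.15).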

How the results depend on the processing

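Of 126 member differences recomputed with quantile normalization or median centring, 0 changed by more than the spread over all genes, and 6 had the other sign, all of size 0.04 or less as reported. Averaging the probe sets of a symbol could change no member, since each has 1. For AICAR against adenine in adipocytes, 1 member (Angptl4, 0.99 as reported) was at least 2-fold higher with quantile normalization and 1 passed a 1.5-fold threshold, where 0 were reported. In AICAR cultures 3 members instead of 4 were at least 2-fold higher in adipocytes with quantile normalization. Leaving out each medium in turn gave state coefficients of 6.48 to 7.24 for Adipoq, 4.63 to 6.13 for Retn, 0.86 to 1.25 for Nampt, 1.44 to 2.49 for Angptl4 and 0.90 to 0.99 for Apln. The number of members that rose was 0 to 5, with 0 without the control arrays, 3 without the adenine arrays and 5 without the AICAR arrays. Over 9 alternatives the limma adjusted p ranged from 9.26e-05 to 0.0588 for Adipoq, 0.000806 to 0.101 for Retn, 0.0185 to 0.182 for Nampt, 0.0143 to 0.155 for Angptl4 and 0.016 to 0.119 for Apln. With no filter on low values, Lep had a state coefficient of 0.05 (limma adjusted p = 0.913) and Rbp4 of -0.04 (limma adjusted p = 0.918). The state test already compares the states within each medium, and no other pairing was available with 1 array per condition. Levels near the lower end of the scale limit what can be seen for Lep and Rbp4, and for Adipoq and Retn in fibroblasts.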

Other observations

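Beside Adipoq and Retn, a pair of other adipocyte genes had a higher value in adenine adipocytes, and both were chosen for this pattern after their values were seen. Both had a mean under the filter of 5.87 and were not among the tested genes. Slc2a4, the insulin-responsive glucose transporter, was at 6.04 in untreated adipocytes, 7.96 with adenine and 5.55 with AICAR, and at 4.99, 4.88 and 5.38 in control, adenine and AICAR fibroblasts. Elovl3, a fatty acid elongase, was at 4.84 in untreated adipocytes, 6.91 with adenine and 4.55 with AICAR. The other brown fat markers had differences of -0.04 (Ucp1), -0.38 (Cidea) and -0.39 (Prdm16) with adenine in adipocytes. These differences rest on 1 array each and were not tested.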
